A study of Saccharomyces cerevisiae with 31 samples.

Results

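In a 2 h metabolic oscillation of budding yeast, transcripts of ribosome making and biosynthesis fell and those of fatty acid oxidation, reserves and stress protection rose between 53.41 and 112.75 degrees of the cycle. Described here are the 6 arrays, of 31 in the series, that cover this second step of the switch: 3 arrays at 53.41, 65.28 and 77.14 degrees (12.80 to 12.93 h), called the early window, and 3 at 89.01, 100.88 and 112.75 degrees (13.00 to 13.13 h), called the late window. They were chosen by the phase angle in their labels alone. All arrays carry total RNA of Saccharomyces cerevisiae CEN.PK122, a laboratory strain, from an aerobic continuous culture that oscillates of its own accord between respiratory and reductive metabolism, as followed by dissolved oxygen. No agent or mutation distinguishes the windows, only the time of sampling, with 4 min between arrays. The preceding window (4 arrays, 5.93 to 41.54 degrees) and the following window (5 arrays, 124.62 to 172.09 degrees) were fitted with them. They place the step and also enter the estimate of spread behind every SE and p. The fit had 11 residual degrees of freedom, against 4 with the 6 arrays alone.

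In oscillating yeast cultures, genes for ribosomes and amino acids are known to be transcribed in the phase of rapid oxygen uptake. Genes for mitochondrial growth and cell division follow, and later come genes for fatty acid oxidation, reserve carbohydrates, vacuolar breakdown and stress protection. Ribosome biogenesis transcripts are short-lived and respond to nutrient signalling, whereas the peroxisomal enzymes of fatty acid oxidation are controlled by glucose repression and by the oleate regulators Oaf1 and Pip2.

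Each angle was measured once and the labels describe 1 time series, treated here as 1 culture. Neighbouring arrays therefore stand in for samples of a window, and every SD, SE and p below measures the spread of neighbouring angles, drift within a window included, not that of separate cultures. An exact permutation test of 3 arrays against 3 cannot go below p = 0.1, so the test used is limma's moderated test across all probe sets, with adjusted p-values (Benjamini-Hochberg) over 5422 probe sets and a threshold of 0.05. Differences are late minus early window, on the log2 scale of quantile-normalized intensity, where 1 is 2-fold. A bulk level cannot tell apart fewer cells that use a gene and less RNA per cell.

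Several measures of array quality moved with the windows. The log2 ratio of the 3′ to the 5′ control probe set of ACT1 lay at 0.489 to 0.615 on the early and at 0.352 to 0.412 on the late arrays. The array numbers in the labels run on without a gap and have no stated meaning. They were cut here into a lower and a higher set, each called a batch below, although the labels name no batch. The cut follows the poly-A spikes, set against the hybridization spikes (-4.37 to -3.68 in the lower and -5.41 to -4.78 in the higher set, log2, over 31 arrays). The spikes are therefore no separate evidence for the sets. The 3 early arrays and the one at 89.01 degrees are of the lower set, those at 100.88 and 112.75 degrees of the higher set. The part of RNA quality in the results was not tested. For the batch, values at 89.01 degrees alone stand beside the main ones: 2906 of the 2910 probe sets called over the step lay on the same side of the early mean at 89.01 degrees, and 2801 lay beyond all 3 early arrays there. Since that array is 1 of the 3 behind the late mean, this agreement is partly fixed by the calls and is no separate test of the batch. With the batch as a term over 15 arrays, 2450 of the 2910 were called again. Of 11 haploid and mating markers, 9 lay at percentiles 5.07 to 24.4 of all genes, RME1 at 33.8 and MF(ALPHA)1 at 68.6, and none was at or under the level of absent transcripts on any of the 15 arrays.

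The step was broad. Of 5422 probe sets, 2910 were called (53.7%), 1531 of them higher (28.2%) and 1379 lower (25.4%) in the late window. On the deposited scale, without normalization between arrays, higher genes made up 35.8% of the calls, and 35.1% when arrays were scaled by the hybridization spikes, against 52.6% here. Calls of 2-fold or more numbered 629 (11.6%), with 252 higher (4.65%) and 377 lower (6.95%), and all 629 lay on the same side at 89.01 degrees, 437 of them by 2-fold or more. Without the array at 53.41 degrees the 2-fold calls numbered 141 higher and 238 lower and all higher calls 932, and without that at 77.14 degrees 406 were higher by 2-fold or more. With the 6 arrays fitted alone, 1534 probe sets were called, and 447 of the 629 passed. The median difference over all probe sets was 0.04, with quartiles of -0.29 and 0.35. The arrays of both windows did not overlap for 3407 probe sets (62.8%) and for 616 of those called by 2-fold or more. Between neighbouring arrays, in order of angle, 228, 170, 67, 22 and 21 probe sets lay 2-fold or more apart, so the change slowed along the step. The count of 67 is for 77.14 and 89.01 degrees, which straddle the border. Between 53.41 and 112.75 degrees it was 1377, and 718 between the first and last array of the early window.

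**Figure D1:**
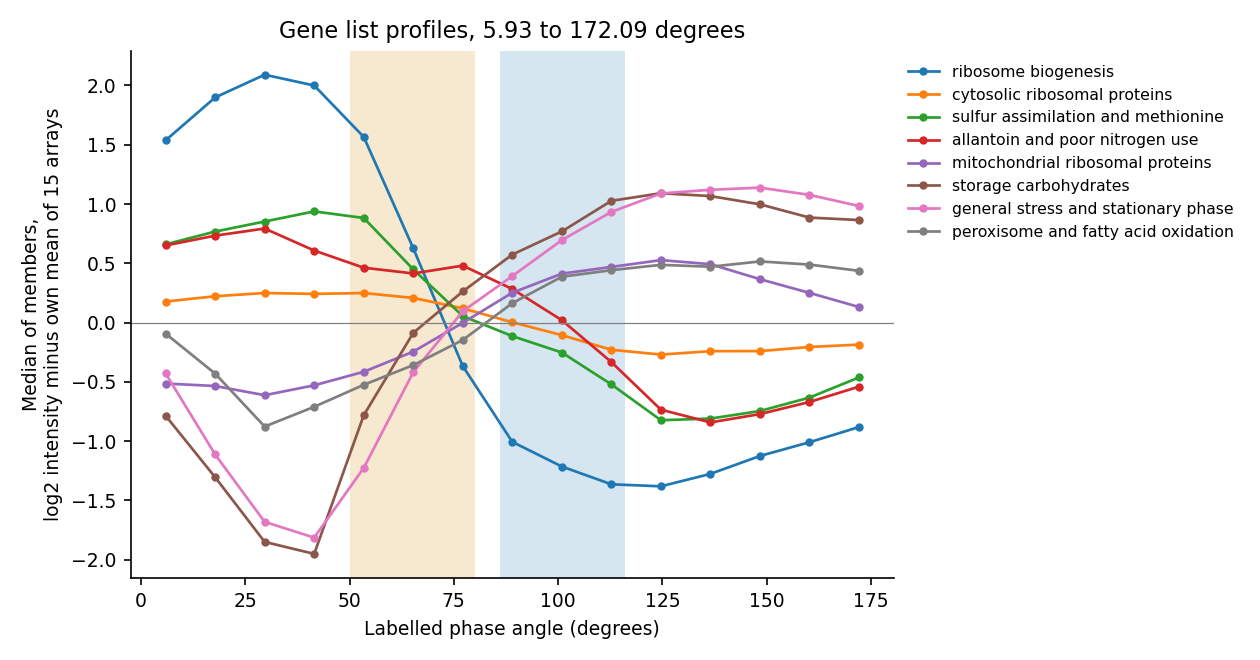
Median log2 intensity of the members of 8 gene lists on each of 15 arrays, after each gene's own mean over these arrays was taken off, against the labelled phase angle in degrees. The early window is shaded orange and the late window blue. Ribosome biogenesis falls steeply through the early window and storage and stress genes rise through both, while the nitrogen list declines from 29.67 degrees, is level over the early window and declines further on each late array.

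Ribosome assembly showed the deepest fall of the 32 gene lists examined. Of 120 genes of ribosome biogenesis, the factors that cut, fold and modify ribosomal RNA in the nucleolus, 119 were lower and 112 of these by 2-fold or more, with a median of -1.82. The helicase gene DBP2 led them. Its normalized log2 intensity was 12.59, 11.84 and 10.54 on the early arrays and 9.40, 8.51 and 8.34 on the late arrays. Every array was below the one before, and the windows did not overlap. The difference was -2.91 ± 0.40 (SE, 7.49-fold, adjusted p = 0.00052, limma), or -2.26 at 89.01 degrees alone and -2.78 with the batch as a term. The 10 largest falls of all genes held 3 more members, NOP13, which encodes a nucleolar RNA-binding protein (-2.66 ± 0.38), and SDA1 and DRS1 of the large subunit (-2.52 ± 0.36 and -2.52 ± 0.46, SE). They also held KRE33, the acetyltransferase gene of small subunit RNA (-2.65 ± 0.39), and PRP43, a helicase gene of ribosome synthesis and splicing (-2.53 ± 0.39, SE), which act in the same process but are not on the list. RSA1, a large subunit assembly gene, was the member that did not pass, with 0.25 ± 0.22 (SE). It stood at 8.86, 7.90 and 8.01 on the early arrays and at 8.39, 8.57 and 8.57 on the late arrays, with its lowest array at 65.28 degrees. With the 6 arrays fitted alone, 76 members passed, at the same median.

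The polymerases that supply ribosomal and transfer RNA went the same way. Of 28 genes of RNA polymerases I and III, 22 were lower and 1 higher (median -1.09). RPA49, a polymerase I subunit gene, fell from 12.33, 11.40 and 9.95 to 9.02, 8.47 and 8.68, by 2.50 ± 0.42 on the log2 scale (SE, adjusted p = 0.000848, limma). RPA190, chosen after its values were seen because it encodes the largest polymerase I subunit, moved later: 13.00, 12.82 and 12.32 became 11.48, 10.52 and 10.05. RRN10, of the upstream factor that recruits polymerase I, was higher by 0.31 ± 0.10 (SE, adjusted p = 0.0181, limma), but its windows overlapped, and the call was lost with the batch as a term (0.21, adjusted p = 0.0802).

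Ribosomal proteins and translation factors were lower too, with smaller medians. Of 125 cytosolic ribosomal protein genes measured of 134 listed, 95 were lower and none higher, with a median of -0.30, and the median change between neighbouring arrays was -0.04, -0.10, -0.12, -0.12 and -0.12. RPL13A fell most. Its values were 13.66, 13.49 and 13.10, then 12.10, 11.69 and 11.64, a difference of -1.61 ± 0.15 (SE, 3.05-fold, adjusted p = 0.00019, limma). The change between 77.14 and 89.01 degrees was -1.01. RPL10, by contrast, read 13.80, 13.78 and 13.87 early and 13.83, 13.81 and 13.74 late (-0.03 ± 0.05, SE, not called, chosen after its values were seen). Duplicated members differ little in sequence, so that a probe set may read both copies, and intensities lie near the top of the scale, so single members are uncertain. The count was 34 on the deposited scale, 43 with the 6 arrays alone and 102 with all 31 arrays. Of 53 genes of translation factors and aminoacyl-tRNA synthetases, 45 were lower and 1 higher (median -0.66). GCD10, a subunit gene of the tRNA methyltransferase that modifies initiator tRNA, fell by 1.80 ± 0.30 (SE). The exception was HEF3, a seldom used copy of elongation factor 3, at 7.47, 7.62 and 7.93 early and 8.89, 9.36 and 9.74 late (1.65 ± 0.35, SE, adjusted p = 0.00236, limma).

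**Figure D2:**
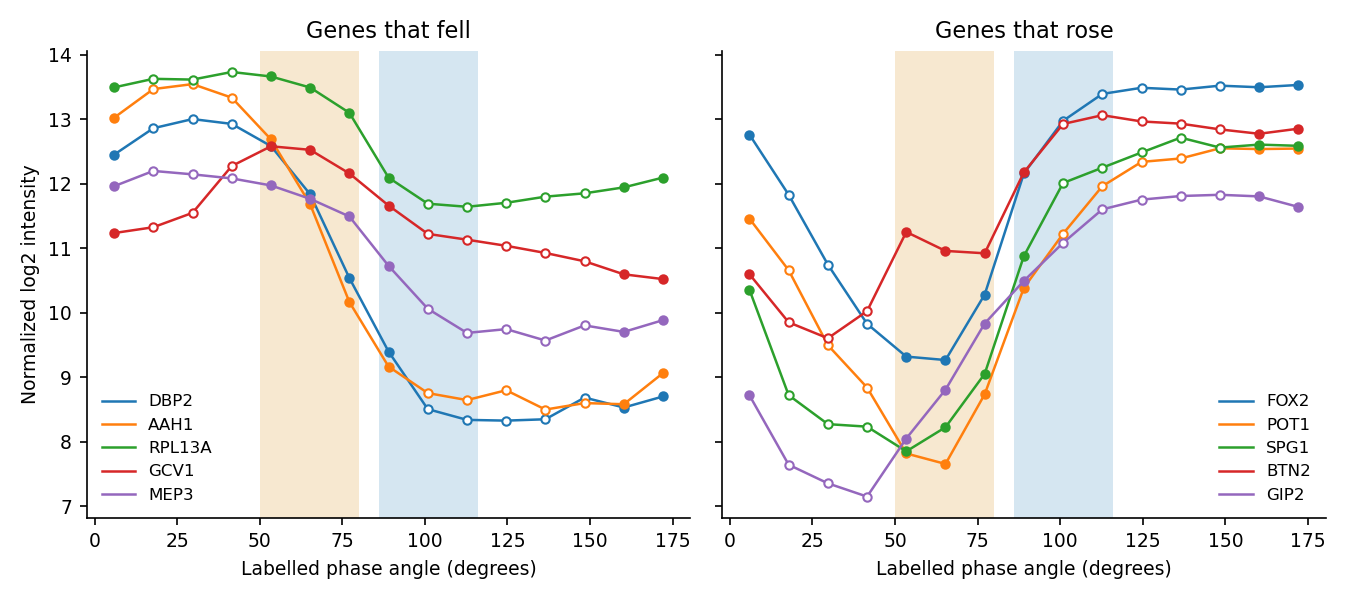
Normalized log2 intensity of 5 genes that fell and 5 that rose, against the labelled phase angle in degrees. Each point is 1 array, filled for the lower and open for the higher set of array numbers. The early window is shaded orange and the late window blue. AAH1 and DBP2 drop through the early window while MEP3 and GCV1 hold until 65.28 degrees, and FOX2 and POT1 reach their lowest array at 65.28 degrees before they climb.

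Genes that make building blocks followed. Of 29 genes of purine and one-carbon synthesis, 19 were lower and 2 higher (median -0.46). AAH1, adenine deaminase, fell by 2.66 ± 0.44 (SE, adjusted p = 0.000827, limma): 12.69, 11.68 and 10.17 early against 9.17, 8.76 and 8.65 late. ADE16, an enzyme of the last steps of purine synthesis, was higher by 0.30 ± 0.11 (SE, adjusted p = 0.0344, limma), a call lost with the batch as a term (0.31, adjusted p = 0.0561). URA7, a CTP synthetase gene listed here with phospholipid synthesis, fell by 2.66 ± 0.39 (SE), from 12.66, 11.81 and 10.42 to 9.11, 8.95 and 8.84. Of 36 genes of sulfur assimilation and methionine synthesis, 24 were lower and none higher (median -0.75), 9 with the 6 arrays alone. MUP1, the high-affinity methionine permease gene, had done its falling before the border: 12.45, 10.81 and 9.02, then 8.99, 8.90 and 8.53 (-1.95 ± 0.58, SE, adjusted p = 0.0134, limma), and with the 6 arrays alone its adjusted p was 0.108. Of 56 genes of other amino acid syntheses, 36 were lower and 3 higher (median -0.48). LEU9, an isopropylmalate synthase gene of leucine synthesis, fell by 2.16 ± 0.33 (SE), from 11.68, 11.31 and 10.46 to 9.61, 8.88 and 8.50. The 3 that rose were ARO9 (1.79 ± 0.48, SE), BAT2 and GDH3, which encode an aromatic and a cytosolic branched-chain aminotransferase and a glutamate dehydrogenase, and of these ARO9 was the one picked by the rule for named genes.

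Nitrogen genes were lower mostly through the later arrays. Of 34 genes of allantoin and other poor nitrogen sources, 18 were lower and 5 higher (median -0.52), 9 and 2 with the 6 arrays alone. The median change of the members between neighbouring arrays was -0.04, 0.04 and -0.08 up to 89.01 degrees and then -0.33 and -0.34, and the value at 89.01 degrees alone was -0.08. The median level of the list, centred on each gene's mean, was 0.79 at 29.67 degrees, 0.46, 0.41 and 0.48 on the early arrays and 0.28, 0.02 and -0.33 on the late arrays. The first of these intervals crosses the batch border and the second lies within the higher batch. With the batch as a term 12 members were lower and 4 higher (median -0.48). MEP3, an ammonium permease gene, stood at 11.98, 11.77 and 11.49 early and at 10.73, 10.06 and 9.69 late (-1.59 ± 0.20, SE, adjusted p = 0.000477, limma). AGP1, a broad amino acid permease gene, and GAT1, a transcription factor gene of the nitrogen response, were flat across the early window (12.71, 12.83 and 12.77; 12.45, 12.41 and 12.24) and lower on each late array (12.14, 11.43 and 11.02; 11.63, 10.97 and 10.91). The fall of this list went on into the following window, where 19 members were lower again and none higher (median -0.55; 6.92% of all probe sets were called there). UGA1, the transaminase gene of 4-aminobutyrate use, ran against the list with 1.19 ± 0.22 (SE).

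Fatty acid oxidation gave most of the largest rises. Of 43 genes of peroxisomes and fatty acid oxidation measured of 45 listed, 32 were higher and 3 lower (median 0.62), 14 of them higher by 2-fold or more. The enzymes moved most. FOX2, the multifunctional hydratase and dehydrogenase of the pathway, read 9.32, 9.27 and 10.28 early and 12.16, 12.98 and 13.39 late. It was low on the first arrays and rose on each array after 65.28 degrees, without overlap. The difference was 3.22 ± 0.57 (SE, 9.32-fold, adjusted p = 0.00102, limma), 2.54 at 89.01 degrees alone, the same batch, and 3.43 with the batch as a term. POX1, the acyl-CoA oxidase of the first reaction, rose by 3.12 ± 0.61 (SE) and POT1, the thiolase of the last, by 3.12 ± 0.56 (SE). POT1 went from 7.82, 7.66 and 8.74 to 10.39, 11.23 and 11.96. CTA1, the peroxisomal catalase that removes the hydrogen peroxide made by Pox1, rose by 2.88 ± 0.55 (SE), and IDP3, the peroxisomal isocitrate dehydrogenase that supplies NADPH for unsaturated fatty acids and is listed here with the TCA cycle, by 2.98 ± 0.50 (SE).

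Transport into the organelle rose with the enzymes. PXA1 and PXA2 encode both subunits of the peroxisomal long-chain fatty acid transporter. PXA1 read 8.68, 9.17 and 10.76 early and 12.23, 12.57 and 12.69 late (2.96 ± 0.60, SE, adjusted p = 0.00184, limma). PXA2 read 7.52, 8.36 and 9.63, then 11.04, 11.62 and 11.81 (2.99 ± 0.60, SE, adjusted p = 0.00174, limma). FAT3, which acts in fatty acid uptake, rose by 2.99 ± 0.54 and CAT2, the carnitine acetyltransferase that carries acetyl units onward, by 2.51 ± 0.56 (SE). Of the regulators, PIP2 rose by 1.28 ± 0.24 (SE, adjusted p = 0.00127, limma), whereas OAF1 was at 10.01, 10.29 and 10.41 early and 10.42, 10.13 and 10.57 late (0.13 ± 0.12, SE, adjusted p = 0.343, limma). PIP2, OAF1 and the import and membrane genes below were picked after their values were seen. PEX11, of peroxisome division, rose by 0.66 ± 0.20 (SE). PEX21 and PEX18, which encode related co-receptors of protein import, went opposite ways: PEX21 fell from 12.43, 12.40 and 12.04 to 11.27, 10.71 and 10.35 (-1.51 ± 0.18, SE), and PEX18 rose from 4.87, 6.17 and 7.16 to 7.55, 7.91 and 8.16 (1.81 ± 0.46, SE). The difference between both was not tested. PEX18 at 53.41 degrees was close to the level of absent transcripts on that array (4.86), so its rise is no firm size.

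Before they rose, FOX2 and POT1 had dropped. FOX2 averaged 11.29 in the preceding window, and its early minus preceding difference was -1.67 (adjusted p = 0.0206, limma), with -2.04 for POT1 (adjusted p = 0.00649, limma) and -1.15 for POX1, which did not pass. That comparison shares the early arrays with the one described here, so a low early window enters both. In the preceding window 3 of 4 arrays are of the higher batch. With the batch as a term the earlier drop of FOX2 was -1.90 (adjusted p = 0.0341, limma).

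Reserve carbohydrate genes went on with a rise that had started before. Of 21 genes of glycogen and trehalose metabolism, 15 were higher and none lower (median 0.86, and 1.18 for the early against the preceding window), 10 of them by 2-fold or more, and 7 passed with the 6 arrays alone. GIP2, which encodes a phosphatase subunit thought to act on glycogen synthase, rose most, from 8.05, 8.81 and 9.83 to 10.50, 11.08 and 11.60 (2.16 ± 0.44, SE, adjusted p = 0.00181, limma). Synthesis and breakdown genes both took part. The glycogen synthase gene GSY2 rose by 1.5 ± 0.35 (SE) and the glycogen phosphorylase gene GPH1 by 1.80 ± 0.49 (SE). The other synthase gene, GSY1, was already up, at 10.11, 11.25 and 11.32 early and 11.21, 11.35 and 11.79 late (0.56 ± 0.33, SE, not called). These 3 genes were picked after their values were seen.

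General stress and stationary phase genes rose as a group. Of 52 measured, 42 were higher and 1 lower (median 1.33), 33 of them by 2-fold or more, and 31 were higher on the deposited scale. SPG1, needed for survival in stationary phase, had the largest rise of all genes, from 7.85, 8.23 and 9.05 to 10.88, 12.01 and 12.25 (3.34 ± 0.50, SE, 10.1-fold, adjusted p = 0.000593, limma). It rose on every array, by 1.83 between 77.14 and 89.01 degrees. FMP45, which encodes a membrane protein of the cell cortex, rose by 2.96 ± 0.43 (SE), from 8.00, 8.66 and 10.24 to 11.57, 11.94 and 12.28. The exception was SNZ1, a vitamin B6 synthesis gene, lower by 0.48 ± 0.19 (SE), which passed at the threshold itself and was lost in 11 of 17 alternatives. The stress regulators MSN2 and MSN4 did not pass, with 0.07 ± 0.08 and 0.28 ± 0.13 (SE, chosen after their values were seen).

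Of 28 chaperone and heat shock genes, 16 were higher and none lower (median 0.46). The share called was 57.1%, near the 53.7% of all probe sets, of which 28.2% were higher. BTN2, a chaperone-like gene of misfolded protein sorting, read 11.25, 10.96 and 10.92 early and 12.18, 12.93 and 13.06 late (1.68 ± 0.24, SE, adjusted p = 0.00057, limma). It drifted down within the early window and stepped up by 1.25 across the border. Of 36 oxidative stress genes, 21 were higher and 7 lower (median 0.37), 6 and 2 on the deposited scale. GND2, a phosphogluconate dehydrogenase gene that yields NADPH, rose by 2.10 ± 0.46 (SE), and the glutaredoxin gene GRX8 fell from 11.99, 11.90 and 10.88 to 10.23, 10.15 and 9.95 (-1.48 ± 0.26, SE, adjusted p = 0.000957, limma).

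**Figure D3:**
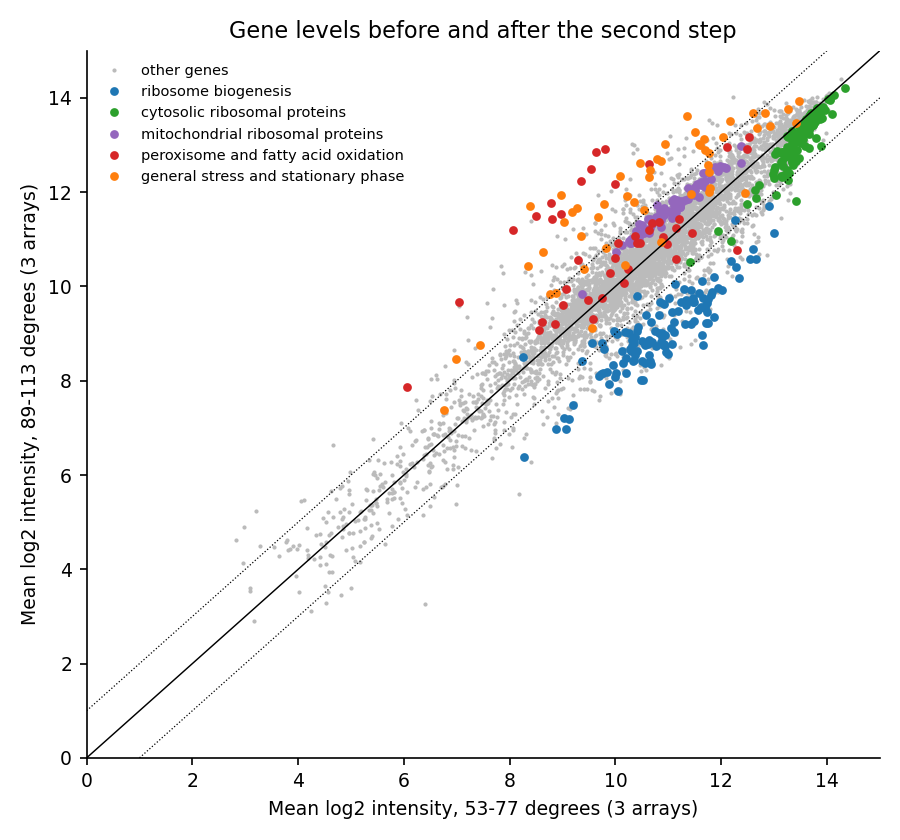
Mean log2 intensity of each gene over the 3 early arrays (horizontal) and the 3 late arrays (vertical), with 5 gene lists in colour; the solid line marks equal levels and the dotted lines a 2-fold difference. Ribosome biogenesis genes lie mostly under the lower dotted line, mitochondrial ribosomal protein genes lie in a narrow band above the solid line, and peroxisome and fatty acid oxidation genes spread from 2.86-fold below it (PEX21) to 9.32-fold above (FOX2).

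Mitochondrial lists were higher, most evenly so the ribosomal proteins. Of 74 mitochondrial ribosomal protein genes, 73 were higher and none lower, with a median of 0.60, a range of 0.24 to 0.94 and no member past 2-fold, and 53 passed on the deposited scale. PET123, of the small subunit, rose most, from 10.45, 10.73 and 11.18 to 11.46, 11.78 and 11.93 (0.94 ± 0.18, SE, 1.92-fold, adjusted p = 0.00127, limma). RSM10 was the member that did not pass, with 0.24 ± 0.15 (SE). Of 49 genes of protein import and respiratory complex assembly, 35 were higher and none lower (median 0.37, range -0.13 to 1.66), 5 of them by 2-fold or more. PET117, an assembly factor gene of cytochrome oxidase, rose from 8.28, 8.71 and 9.41 to 10.20, 10.53 and 10.65 (1.66 ± 0.25, SE, 3.15-fold, adjusted p = 0.000649, limma). Of 40 genes of the respiratory chain and ATP synthase, 23 were higher and none lower (median 0.20). The share called was 57.5%, near the 53.7% of all probe sets, of which 28.2% were higher. Among these 40 genes the count fell to 2 on the deposited scale, 4 with spike scaling and 4 with the 6 arrays alone. NDE2, an external NADH dehydrogenase gene, was the highest of them with 9.16, 10.25 and 11.56 early and 12.40, 13.00 and 13.11 late (2.51 ± 0.54, SE, adjusted p = 0.00268, limma).

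Central carbon lists held shares of calls of 42.9% to 44.1%, below the 53.7% of all probe sets. Of 25 genes of the TCA and glyoxylate cycles, 10 were higher and 1 lower (median 0.41), 3 and 1 on the deposited scale. IDP3 led them, followed by CIT3, a mitochondrial citrate and methylcitrate synthase gene, at 9.70, 9.95 and 11.38 early and 12.59, 13.13 and 13.30 late (2.66 ± 0.54, SE, chosen after its values were seen). The lower one was DAL7, a malate synthase gene of allantoin use, which fell by 1.43 ± 0.31 (SE). It was not called with the 6 arrays alone (adjusted p = 0.0525, limma). Of 34 genes of gluconeogenesis and acetate use, 11 were higher and 4 lower (median 0.56), 5 and 3 with the 6 arrays alone. The malic enzyme gene MAE1 fell most, by 1.28 ± 0.28 (SE). PCK1, the gluconeogenic carboxykinase gene, peaked at the border with 9.61, 11.02 and 11.79 early and 11.69, 11.39 and 10.94 late (0.54 ± 0.46, SE, not called, chosen after its values were seen). Of 28 glycolysis genes, 9 were higher and 3 lower (median 0.11). PFK27, a kinase gene that makes the activator fructose 2,6-bisphosphate, fell from 10.27, 9.95 and 9.40 to 8.94, 8.09 and 7.53 (-1.69 ± 0.31, SE, adjusted p = 0.00126, limma), and GPM2, a copy of phosphoglycerate mutase, rose by 1.86 ± 0.46 (SE). Of 23 hexose transporter and sensor genes, 8 were higher and 2 lower (median 0.38). HXT4 fell by 1.38 ± 0.34 (SE) but was not called with the 6 arrays alone (adjusted p = 0.0607, limma). Since the transporters resemble each other in sequence, single members are uncertain.

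Turnover genes rose mildly. Of 43 autophagy and vacuolar genes, 29 were higher and none lower (median 0.61), 8 on the deposited scale. AMS1, the vacuolar mannosidase gene, rose from 9.39, 10.26 and 11.21 to 11.68, 11.97 and 12.19 (1.66 ± 0.46, SE, adjusted p = 0.00989, limma). Of 40 proteasome genes, 23 were higher and none lower (median 0.30). The share called was 57.5%, near the 53.7% of all probe sets, of which 28.2% were higher. The count of proteasome genes ranged from 1 on the deposited scale to 37 with the batch as a term over 31 arrays. The proteasome-associated gene ECM29 had 0.93 ± 0.28 (SE, adjusted p = 0.0146, limma).

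DNA replication and sterol genes were lower by small amounts. Of 57 DNA replication and G1/S genes, 30 were lower and 2 higher (median -0.30), 13 and none on the deposited scale. The share called was 56.1%, near the 53.7% of all probe sets, of which 25.4% were lower. CDC6, which loads the replicative helicase at origins, read 10.28, 9.64 and 8.86 early and 8.58, 8.72 and 8.91 late (-0.86 ± 0.26, SE, adjusted p = 0.0146, limma). Its windows overlapped, and it was not called with the 6 arrays alone (adjusted p = 0.101, limma). SWI6, a subunit gene of the G1/S transcription factors, rose by 0.38 ± 0.10 (SE). Of 29 ergosterol genes, 15 were lower and 2 higher (median -0.22), 3 and none on the deposited scale. The share called, 58.6%, was also near that of all probe sets. The regulator UPC2 led the falls (-1.14 ± 0.21, SE). HMG2, an HMG-CoA reductase gene, was higher by 0.66 ± 0.21 (SE). That call was lost on the deposited scale, with spike scaling and with the 6 arrays alone (adjusted p = 0.124, 0.0525 and 0.088, limma). Of 30 meiosis and sporulation genes, 11 were higher and 3 lower (median 0.35), a share of 46.7%, below the 53.7% of all probe sets. DMC1, the meiotic recombinase gene, had 1.01 ± 0.21 and SPO13 -0.70 ± 0.20 (SE). SPO13 was not called with the batch as a term over 15 or 31 arrays (adjusted p = 0.0565 and 0.0536, limma). On the late arrays SPO13 read 4.96, 4.47 and 4.69. The level of absent transcripts there was 4.32, 4.30 and 4.42, so its fall is no firm size.

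The remaining lists also held shares of calls below the 53.7% of all probe sets. They were fatty acid and phospholipid synthesis (2 higher and 8 lower of 31), G2/M and mitosis (2 and 7 of 26), cell separation and cell wall (5 and 10 of 32), phosphate use (4 and 7 of 24), iron and metal uptake (7 and 3 of 30), histones (2 and 0 of 9) and haploid-specific genes (3 and 1 of 21). Named members were the acyltransferase gene GPT2 (1.19 ± 0.35), the mitotic cyclin gene CLB1 (-0.39 ± 0.14), its activator NDD1 (0.48 ± 0.11), the linker histone gene HHO1 (0.40 ± 0.10, all SE), the wall protein genes DAN1 (-0.95 ± 0.21) and SPI1 (1.79 ± 0.29), and the phosphate transporter gene PHO90 (-1.39 ± 0.21). CTR3, a copper transporter gene, rose by 1.59 ± 0.25 and ISU2, an iron-sulfur scaffold gene, fell by 0.77 ± 0.29, while the agglutinin gene AGA1 fell by 0.40 ± 0.10 and the meiotic repressor gene RME1 rose by 0.99 ± 0.22 (SE). Their medians lay between -0.06 and 0.16. CLB1 was not called with the batch as a term (adjusted p = 0.0538, limma) and was lost in 8 of 17 alternatives. ISU2 was lost in 7, among them the 6 arrays alone (adjusted p = 0.143, limma) and leaving out 5 of the 6 arrays in turn. HHO1 and RME1 were not called with the 6 arrays alone (adjusted p = 0.0565 and 0.0528, limma).

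A count of none in a list is from limma at the adjusted threshold; in the 11 lists with no call one way, the count that way was also 0 at an unadjusted p under 0.05.

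**Figure D4:**
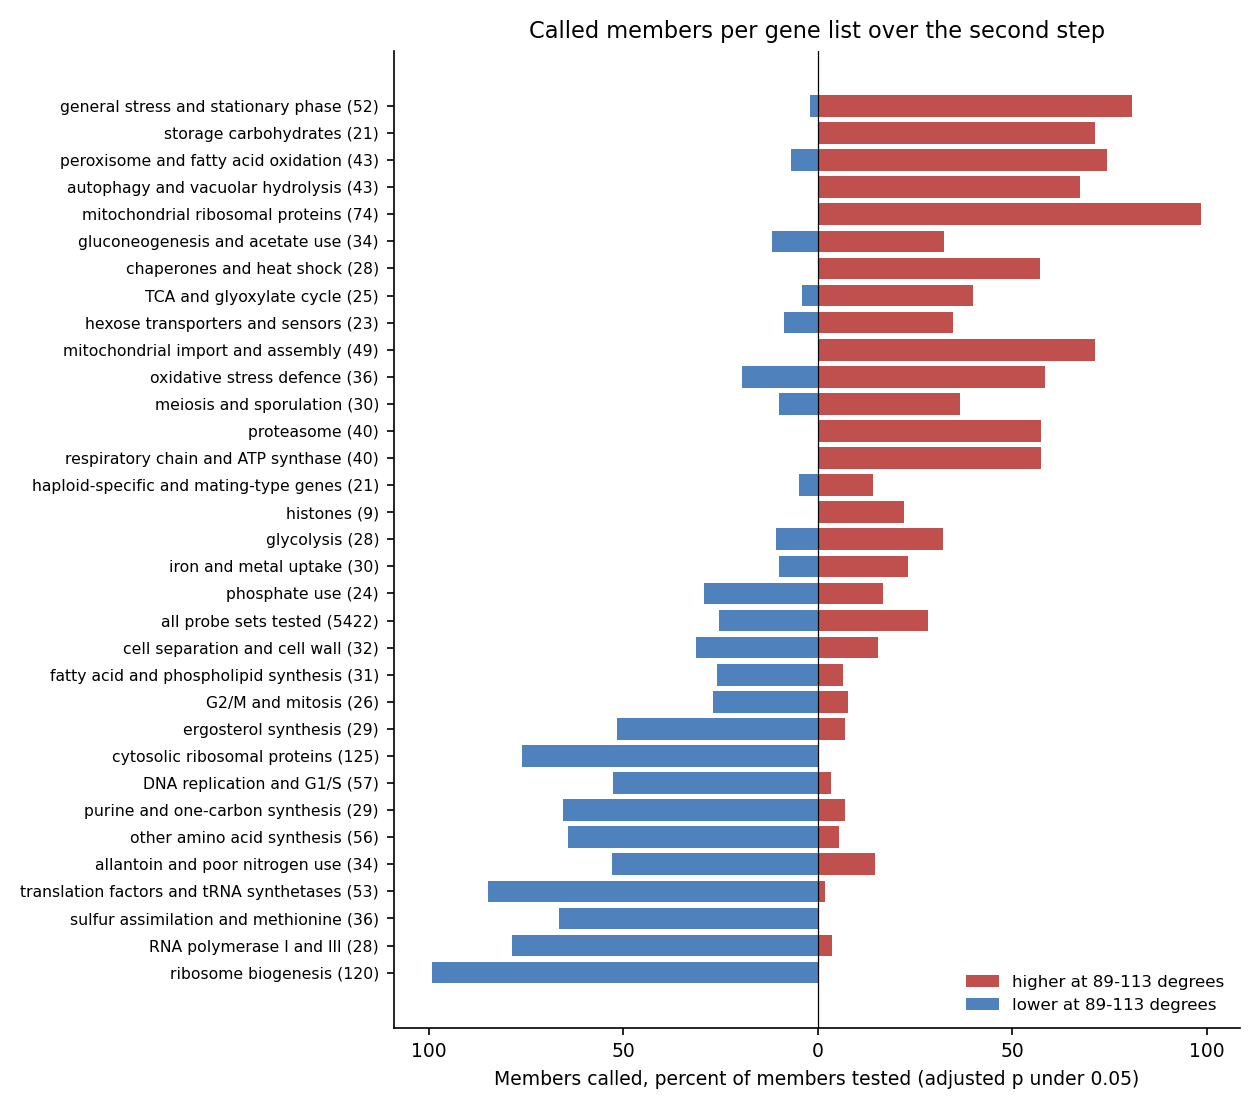
Share of each list's measured members called higher (red, to the right) and lower (blue, to the left) in the late window, in percent, with the number of members in parentheses and all probe sets for comparison; lists are ordered by their median difference. Ribosome biogenesis and mitochondrial ribosomal proteins lie at opposite sides with nearly all members called.

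Most genes called by 2-fold or more had their largest change before the border between the windows. For each of the 629 probe sets, the interval between neighbouring arrays with the largest change in the direction of the call was found. Among those that fell it was 53.41 to 65.28 degrees for 123, 65.28 to 77.14 for 159, 77.14 to 89.01 for 74, and the last intervals for 17 and 4. Among those that rose the counts were 98, 73, 64, 11 and 6. Of the ribosome biogenesis genes that fell by 2-fold or more, 67 had their largest change from 65.28 to 77.14 degrees, and of the peroxisome genes that rose so much, 10 had it from 77.14 to 89.01 degrees, within the lower batch. Of the 10 storage genes, 8 had it in the first interval.

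**Figure D5:**
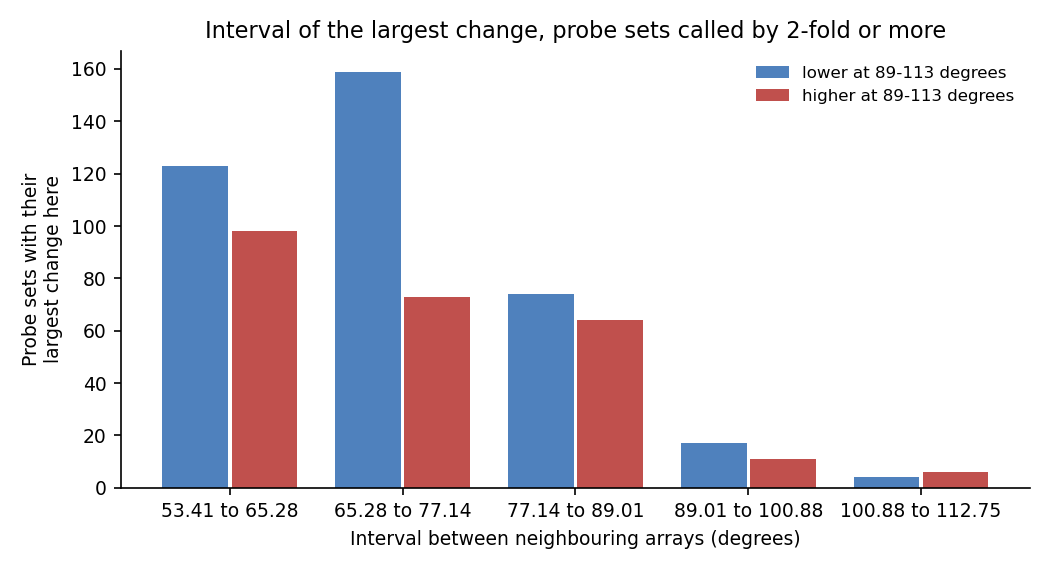
Number of probe sets called by 2-fold or more (bars) whose largest change fell in each of the 5 intervals between neighbouring arrays, for falling (blue) and rising (red) probe sets. The counts are 123, 159, 74, 17 and 4 for falls and 98, 73, 64, 11 and 6 for rises.

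A smaller set changed little within the early window. Chosen after the values were seen, as a description, it holds genes called by 2-fold or more that changed by less than 0.5 from 53.41 to 77.14 degrees: 33 of 373 genes that fell and 27 of 250 that rose. The rule does not look at the preceding window, from which some had already moved, such as BTN2 (1.02) and GCV1 (0.83). Among those that fell were 4 of the nitrogen list (MEP3, DAL1, AGP1 and GAT1) and genes of lysine, branched-chain and glycine metabolism (LYS4, LYS2, BAT1, ILV1, GCV1 and GCV2). GUA1, the GMP synthetase gene, stood at 13.44, 13.33 and 13.01 and then at 12.42, 11.76 and 11.30. PDR5, a multidrug transporter gene, stayed level with 12.00, 12.20 and 12.09 and then read 11.44, 10.87 and 10.86. Among those that rose were the stress genes SIP18 and ALD3 and the chaperone genes BTN2, HSP26, HSP30 and SSA3. SIP18, a desiccation protection gene, stood at 10.39, 10.29 and 10.73 and then at 12.03, 12.68 and 13.14. SSA3, an Hsp70 gene of starved cells, stood at 9.92, 9.92 and 10.09 and then at 10.37, 11.39 and 12.15, and its largest change, after 89.01 degrees, crossed the batch border.

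On quantile-normalized intensity and at the adjusted threshold, transient peaks were rare in the late window and more common in the early one. A short-lived high is a window higher than both its neighbours with both differences called. Both differences share the arrays of that window, so the counts describe shape and are no test. An early shape also needs a call against the preceding window, where 46.8% of probe sets were called. A late shape needs one against the following window, where 6.92% were. Late highs numbered 17 (0.314%) and late lows 6 (0.111%), against 103 early highs (1.9%) and 142 early lows (2.62%). With the batch as a term, 6 of the 17, 4 of the 6, 57 of the 103 and 83 of the 142 passed again. The order depended in part on the scaling. On the deposited scale late highs (0.148%) exceeded early lows (0.111%) but not early highs (0.572%). With spike scaling late highs (0.59%) exceeded early lows (0.406%) but not early highs (3.85%). At an unadjusted p under 0.05 (limma), the deposited scale gave 124 late highs against 60 early highs and 27 early lows. The number of late highs depended on single arrays. It was 0 without the array at 89.01 degrees (57 at an unadjusted p under 0.05, limma), 1 without that at 100.88 degrees, 6 without that at 65.28 degrees, 11 without that at 53.41 degrees and 37 without that at 77.14 degrees. The late lows fell to 1 without either the array at 89.01 or that at 100.88 degrees and rose to 21 without that at 77.14 degrees. HXT17, a hexose transporter gene, had the largest late high: 5.59, 6.74 and 7.48 early, 8.54, 8.26 and 7.56 late, and a mean of 6.12 after. Its difference was 1.52 ± 0.52 (SE, adjusted p = 0.0264, limma), and the call was lost with the batch as a term (1.40, adjusted p = 0.0722) and with the 6 arrays alone (adjusted p = 0.0665). Its probe set carries the suffix by which Affymetrix marks sets shared by several transcripts.

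The next late highs were GIT1, a glycerophosphoinositol permease gene, RAD61, a cohesin regulator gene, HFA1, the mitochondrial acetyl-CoA carboxylase gene, and NTA1, an N-terminal amidase gene. NTA1 was at 8.02, 7.84 and 8.06 early and 8.79, 8.59 and 8.36 late (0.61 ± 0.10, SE, adjusted p = 0.000846, limma), with a mean of 8.47 before and 8.24 after. The calls of GIT1 and RAD61 over the step were lost with the batch as a term (0.58 and 0.39, adjusted p = 0.0507 and 0.0565). Among the late lows HRP1, an RNA-binding factor gene of mRNA 3′ end formation, moved most. It read 12.27, 12.58 and 12.30 early and 11.66, 11.49 and 11.95 late, between means of 11.13 in the preceding and 12.47 in the following window, so it rose, dipped by 0.68 ± 0.12 (SE, adjusted p = 0.00119, limma) and rose again by 0.77. GDS1, ORC2, MOT1 and TSC10 dipped by 0.40 ± 0.14, 0.34 ± 0.11, 0.29 ± 0.09 and 0.26 ± 0.08 (SE). With the batch as a term the dips of GDS1 and TSC10 were -0.33 and -0.20 and did not pass. HFA1 was lost in 8 of 17 alternatives, ORC2 in 6 and MOT1 in 5.

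The number of early highs was 45 without the array at 65.28 degrees and 64 without that at 100.88 degrees, and that of early lows 66 without that at 65.28 degrees. Early highs are genes that rose into the early window and fell over the step. ECM13, of unknown function, averaged 11.02 in the preceding window, read 12.80, 12.88 and 12.41 early, and came down to 11.54, 10.88 and 10.51 (-1.72 ± 0.31, SE, adjusted p = 0.00104, limma). NRG2, a repressor gene of glucose control, ISA1, an iron-sulfur assembly gene, and GCV1, of the glycine cleavage complex, dropped by 0.88 ± 0.10, 1.05 ± 0.14 and 1.08 ± 0.24 (SE). YGR035C, of unknown function, had 8.35, 8.50 and 7.71 early and 6.23, 5.65 and 4.90 late, and its -2.59 ± 0.31 (SE) is also among the 10 largest falls. The largest fall of all, YMR230W-A, rests partly on 1 array: 6.60, 6.64 and 5.97 early, then 4.69, 3.93 and 1.2, with 2 late arrays at or under the level of absent transcripts, so its -3.13 ± 0.77 (SE) is no firm size.

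After the late window fewer probe sets were called. From the late to the following window 375 probe sets were called (6.92%), 39 of them by 2-fold or more, against 2537 (46.8%) and 530 from the preceding to the early window. These comparisons share the early or the late arrays with the step itself. The ribosome biogenesis list had medians of -1.19, -1.82 and 0.06 over the 3 comparisons. Stress genes had 0.67, 1.33 and 0.25. Peroxisome genes had 0.03, 0.62 and 0.11. The nitrogen list had -0.55 in the last comparison, the purine and one-carbon list -0.52 (12 of 29 lower), and 16 of 56 genes of other amino acid syntheses were lower there.

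Of the reference genes, ACT1, actin, read 13.90, 13.89 and 13.99 early and 13.93, 13.99 and 13.98 late (0.04 ± 0.06, SE, adjusted p = 0.556, limma). TDH3, a glyceraldehyde-3-phosphate dehydrogenase gene, had 0.06 ± 0.06 (SE, adjusted p = 0.381, limma). Neither passed under any of the alternatives, although both signs turned with the scaling of the arrays. Their intensities lie near the top of the scale, as for the ribosomal protein genes, so small changes in them are uncertain. PMA1, the plasma membrane proton pump gene, was lower by 0.21 ± 0.08 (SE, adjusted p = 0.0295, limma), at 13.56, 13.38 and 13.24 early and 13.18, 13.21 and 13.15 late. Its call was lost with the 6 arrays alone (adjusted p = 0.135, limma), on the deposited scale (0.181), with median centring (0.126) and without 5 of the 6 arrays in turn (0.0546 to 0.144).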

How the data were processed

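Total RNA was hybridized to Affymetrix Yeast 2.0 arrays, which hold 10928 probe sets. The deposited intensity values, on a linear scale from 0.1 to 24501.6, were made by the authors with GCOS, per the submitters' processing notes; its version and settings are not given in the sources used. Groups were taken from the labelled phase angles. Log2 intensities of the 5498 S. cerevisiae probe sets with 1 gene symbol were quantile-normalized over 31 arrays in R 4.3.3 with limma 3.58.1. A floor of 17.04 on the median intensity, which is percentile 95 of the other-species medians, removed 76 of them. The rest were fitted in 4 windows over 15 arrays (11 residual degrees of freedom) with lmFit and eBayes. The fit was also run on simulated arrays with independent noise, which hold no drift between neighbouring angles and so cannot test its effect. The probe set with the highest median stood for a gene. Named genes are the 10 largest falls and 10 largest rises called without overlap, the 5 largest short-lived changes of each kind described, the called member with the largest fall and rise of each list, and 3 reference genes. Members and lists were chosen with earlier results of these data known. Alternatives changed the scaling, filter, arrays fitted, batch term and variance trend, or left out single arrays. The number of arrays limits the precision.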

Additional observations from a re-analysis of the deposited data

Results flagged for a closer look

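In the following window the median of the TCA and glyoxylate cycle list, centred on each gene's mean over 15 arrays, was 0.2351 at 160.22 degrees, apart from the other 4 arrays at 0.2797 to 0.2899. In the preceding window the median of the phosphate use list was 0.0588 at 41.54 degrees, apart from the other 3 arrays at -0.1443 to -0.1122. Chance alone sets about 1 in 20 such groups apart, and 64 were looked at. Neither array belongs to the early or late window.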

How the results depend on the processing

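No paired analysis was possible because each angle has 1 array and the replicate numbers only name arrays. The 629 calls of 2-fold or more kept their direction under every alternative in which they were tested, with 621 of them tested under the stricter filter. No named gene's call reversed, with 1188 of 1390 named-gene values on the same side of the threshold. With the batch as a term over 15 arrays 2450 of the 2910 calls passed again, 2151 with spike scaling and 1157 on the deposited scale. The deposited scale gave 1169 calls, 418 higher and 751 lower, the 6 arrays alone 1534, 800 higher and 734 lower, and spike scaling 855 higher. Within the lower batch, which holds 1 late array, 5 were called (1559 at an unadjusted p under 0.05, limma), 2 higher and 3 lower, of these 0 higher (114 unadjusted) and 3 lower by 2-fold or more. The fit called within the lower batch left out only the late arrays at 100.88 and 112.75 degrees. Arrays of the higher batch in the preceding and following windows stayed in it and entered its residual variance. With 1 late array, its counts cannot decide on the part of the batch. Short-lived changes follow in percent of the probe sets tested. Late highs (0.314) were 0.148 on the deposited scale, 0.166 with median centring and 0.59 with spike scaling. They were 1.35 with all 31 arrays, and 0.111 and 1.22 with the batch as a term over 15 and 31 arrays. Late lows (0.111) were 0 on the deposited scale (1 probe set at an unadjusted p under 0.05, limma). They were 1.01 with all 31 arrays and 0.922 with the batch as a term over them. Early highs (1.9) were 0.572 on the deposited scale, 3.85 with spike scaling, 3.26 with all 31 arrays, and 3.01 with the batch as a term over them. Early lows (2.62) were 0.111 on the deposited scale, 0.406 with spike scaling, 3.97 with all 31 arrays, 1.62 with the batch as a term over 15, and 0.0369 within the lower batch. Leaving out single arrays gave 1970 to 3317 calls, 932 to 1790 higher, 1033 to 1527 lower, 141 to 406 higher and 238 to 486 lower by 2-fold or more, and 0 to 0.682% late highs, 0.0184 to 0.387% late lows, 0.83 to 1.86% early highs and 1.22 to 3.1% early lows. The causes were not tested. Medians of the G2/M, cell wall, phosphate and iron lists changed sign under some alternatives.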
